A study of Homo sapiens with 6 samples.

Results

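The 10 genes described here encode 8 receptor tyrosine kinases and 2 ligands that are known from studies of escape from EGFR inhibition, namely MET, AXL, FGFR1, FGFR2, FGFR3, FGFR4, EPHA2 and ROR1 with the ligands GAS6 and FGF2. They were taken by gene symbol from the 36459 genes of the gene count table, where all 10 were found. The rule used names and no measured value, but the genes were chosen with earlier results of these data known. PC9 cells come from a non-small cell lung cancer and depend on a mutated EGFR, and erlotinib is an inhibitor of the EGFR kinase. Poly-A RNA was sequenced from 3 libraries of untreated parental PC9 cells, each from an independent culture, and from 3 libraries of persister cells (PSPC9), the same line kept for 6 days in 15 µM erlotinib. The PSPC9 libraries were pooled from 9 treated cultures, both groups are 1 cell line, and the study combined them with libraries of another laboratory that were not analysed here. Total estimated counts lay between 29476725 and 34893782 per library, and p-values measure the spread between these libraries. That spread is between pools of cultures in PSPC9 and between single cultures in PC9.

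A receptor tyrosine kinase is a membrane protein whose intracellular kinase is switched on when a ligand brings receptors together, and it feeds the RAS-MAPK and PI3K-AKT pathways that EGFR also feeds. A cell whose EGFR is blocked can therefore be driven through another receptor, which is called bypass signalling. MET with its ligand HGF, AXL with GAS6, and FGFR1 with FGF2 are the pairs most often discussed for EGFR-mutant lung cancer. EPHA2 binds ephrins on neighbouring cells, and ROR1 is a WNT5A receptor with little kinase activity of its own that can assist other receptors.

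MET, AXL and FGFR3 are each made in forms that differ in the part outside the cell, and the sequences below are the stretches that tell those forms apart in the transcript counts given later. All are on the plus strand of GRCh38, are written 5′ to 3′ from the GENCODE transcripts, and have the form-specific bases in capitals between the 20 transcript bases before and the 20 after. The MET stretch (chr7:116759337-116759390) is the first 54 bases of exon 10 of the long MET transcript and adds 18 residues. The AXL stretch (chr19:41239694-41239720) is exon 10 of the long AXL transcript and adds 9 residues next to the membrane. The FGFR3 stretches are a pair of alternative coding exons for the third immunoglobulin-like domain, IIIb (chr4:1802914-1803064) and IIIc (chr4:1803692-1803836), which set the FGFs the receptor binds.
MET insert: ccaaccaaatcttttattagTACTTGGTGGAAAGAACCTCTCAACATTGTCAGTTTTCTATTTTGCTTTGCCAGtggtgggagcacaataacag
AXL exon 10: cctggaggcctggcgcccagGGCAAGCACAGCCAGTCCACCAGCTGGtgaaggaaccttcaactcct
FGFR3 IIIb exon: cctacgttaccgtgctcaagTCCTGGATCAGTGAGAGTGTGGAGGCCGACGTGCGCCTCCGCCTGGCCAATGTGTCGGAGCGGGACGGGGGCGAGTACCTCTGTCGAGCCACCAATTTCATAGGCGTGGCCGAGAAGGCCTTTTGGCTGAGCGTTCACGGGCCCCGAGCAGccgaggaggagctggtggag
FGFR3 IIIc exon: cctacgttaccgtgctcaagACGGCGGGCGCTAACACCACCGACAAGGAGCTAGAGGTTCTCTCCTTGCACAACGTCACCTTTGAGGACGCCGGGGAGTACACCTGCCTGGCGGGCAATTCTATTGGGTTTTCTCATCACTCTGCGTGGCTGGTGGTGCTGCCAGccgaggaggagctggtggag

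In PSPC9, FGFR1 and FGF2 changed most of the 10 genes. FGFR1 was 9.55-fold and FGF2 3.80-fold above PC9, GAS6 and ROR1 were about 1.6-fold (1.58 and 1.57) and AXL 1.28-fold above, and EPHA2 was 0.582 times its PC9 level. Of the 9 genes with enough counts for the test, 5 rose, 1 fell and 3 did not pass the limit, an adjusted p under 0.01 in edgeR's quasi-likelihood test. The same test called 56.8% of all 14626 genes tested, 28.7% higher and 28.1% lower in PSPC9, so the 66.7% called among the 9 stood near the background of this comparison. The libraries of the groups did not overlap for 8 of the 9, with PSPC9 above in 6 and below in 2, against 71.3% of all genes tested (35.5% above and 35.7% below). A change above 2-fold was found for 2 of them, FGFR1 and FGF2, against 11.6% of all genes.

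**Figure D1:**
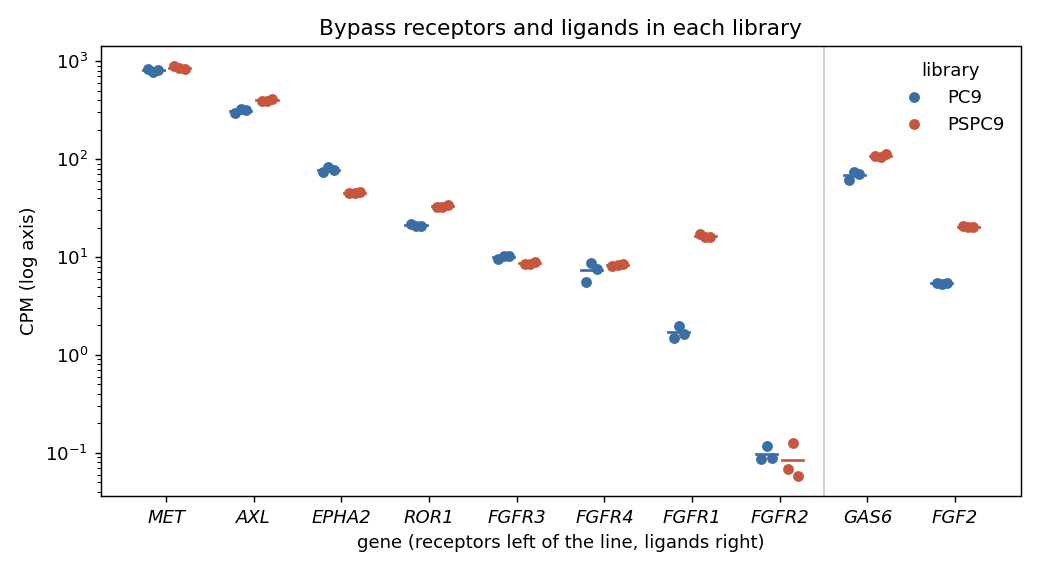
CPM (log axis) of the 10 genes in each of the 6 libraries, with PC9 in blue, PSPC9 in red and a line at each group's mean (n = 3). FGFR1 and FGF2 show the widest gaps between the groups, MET the highest level, and FGFR2 lies near the limit set by 3 counts in both groups.

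MET (chr7:116672196-116798377, plus strand, as all gene positions here from GENCODE on GRCh38), the receptor for hepatocyte growth factor, differed little. It was at 826, 774 and 809 CPM (counts per 1000000 counts, with library sizes scaled by TMM) in the PC9 libraries and at 882, 849 and 839 CPM in the PSPC9 libraries. All PSPC9 libraries lay above all PC9 libraries, by a margin smaller than the SD of either group (26.6 CPM in PC9 and 22.3 CPM in PSPC9). The log2 fold change was 0.09 ± 0.04 (SE; 95% interval 0.01 to 0.18) with an adjusted p of 0.0453, which did not pass the limit. Its ligand HGF had 3 counts in the first library of each group, a mean of 0.0882 CPM in PC9 and 0.0546 CPM in PSPC9, and was too low to be tested.

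AXL (chr19:41219223-41261766, plus strand), a receptor of the TAM family, rose. So did GAS6 (chr13:113820549-113864076, minus strand), the vitamin K-dependent protein that binds it. AXL was at 296, 322 and 316 CPM in PC9 and at 388, 394 and 411 CPM in PSPC9, without overlap. Its log2 fold change was 0.35 ± 0.04 (SE), with an adjusted p of 2.09e-05. GAS6 was at 61.3, 74.4 and 70.4 CPM in PC9 and at 107, 106 and 113 CPM in PSPC9, and its lowest PSPC9 library was well above its highest PC9 library. Its log2 fold change was 0.66 ± 0.06 (SE), with an adjusted p of 4.42e-06. PROS1, another ligand of this family, was at 3.85 ± 0.144 CPM (SD, n = 3) in PC9 and 4.09 ± 0.163 CPM in PSPC9 with overlapping libraries and an adjusted p of 0.482.

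FGFR1, a receptor for FGF2 and other fibroblast growth factors, had few counts in PC9 and many more in PSPC9. Its counts were 51, 68 and 55 in PC9 and 502, 502 and 541 in PSPC9, or 1.48, 2.00 and 1.63 CPM against 17.2, 15.9 and 15.8 CPM. Each PSPC9 library was several times above each PC9 library. The log2 fold change was 3.26 ± 0.11 (SE), a fold of 9.55 with a 95% interval of 8.11 to 11.3 and an adjusted p of 1.01e-09. Among all genes tested, 99.2% had a smaller absolute log2 fold change, while 30.6% had a lower mean CPM.

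FGF2 (chr4:122826682-122898236, plus strand), a ligand without a signal peptide that reaches FGFRs together with heparan sulfate, was at 5.46, 5.26 and 5.41 CPM in PC9 and at 20.8, 20.2 and 20.2 CPM in PSPC9. The libraries within a group were nearly equal and the groups were far apart. The log2 fold change was 1.92 ± 0.07 (SE), a fold of 3.80 with a 95% interval of 3.44 to 4.20 and an adjusted p of 1.26e-09. FGFR1 and FGF2 were the 2 genes of the 10 with the smallest p-values.

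The other 3 FGF receptors did not follow FGFR1. FGFR3 was at 9.65, 10.3 and 10.2 CPM in PC9 and at 8.56, 8.58 and 8.95 CPM in PSPC9. Its PSPC9 libraries all lay below PC9, but the log2 fold change of -0.21 ± 0.07 (SE) had an adjusted p of 0.0236 and did not pass the limit. With upper-quartile scaling or with library size alone the adjusted p of FGFR3 was 0.00906 and 0.00825, past the limit. FGFR4 was at 5.61, 8.67 and 7.63 CPM in PC9 and at 8.19, 8.23 and 8.52 CPM in PSPC9. The groups overlapped, and the adjusted p was 0.236 for a log2 fold change of 0.19 ± 0.13 (SE), which was 0.03 (adjusted p of 0.793) without PC9 replicate 1, the lowest library, and 0.33 (0.0321) without PC9 replicate 2, the highest. FGFR2 had 3, 4 and 3 counts in PC9 and 2, 4 and 2 in PSPC9, at the level of 3 counts per library (0.0872 to 0.103 CPM) below which no difference could be seen at this depth.

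EPHA2 (chr1:16124337-16156069, minus strand), an Eph receptor described in resistance to EGFR inhibitors, was the gene of the 10 that fell. It was at 73.6, 82.6 and 77.2 CPM in PC9 and at 44.8, 44.8 and 46.2 CPM in PSPC9. The PSPC9 libraries were close to each other and far below PC9. The log2 fold change was -0.78 ± 0.05 (SE), or 0.582 times with a 95% interval of 0.539 to 0.628, and the adjusted p was 1.63e-07.

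Of the A-type ephrins that bind EPHA2, EFNA1 (log2 fold change -0.47 ± 0.06, SE), EFNA3 (-0.78 ± 0.12) and EFNA4 (-0.35 ± 0.09) also fell. EFNA5 (0.04 ± 0.05) and EFNA2 (0.36 ± 0.24) did not pass the limit, with adjusted p of 0.486 and 0.202. EFNA1, the best-studied ligand of EPHA2, went from 23.2 ± 1.36 CPM (SD, n = 3) to 16.8 ± 0.571 CPM.

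ROR1 (chr1:63774017-64181498, plus strand) rose. It was at 21.8, 20.7 and 20.9 CPM in PC9 and at 32.7, 32.7 and 33.7 CPM in PSPC9, without overlap and with little spread in either group. Its log2 fold change was 0.65 ± 0.05 (SE), with an adjusted p of 5.80e-07. With gene counts summed over transcripts matched to GENCODE, the log2 fold change of ROR1 was 0.49, with an adjusted p of 0.000390. WNT5A, its ligand, moved the other way, from 317 ± 15.8 CPM (SD, n = 3) to 229 ± 4.98 CPM (log2 fold change -0.47, adjusted p of 2.47e-06). WNT5B was at 26.9 ± 1.93 CPM in PC9 and 25.8 ± 0.876 CPM in PSPC9, with overlapping libraries and an adjusted p of 0.401.

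To set the genes beside one another, estimated counts of each transcript were divided by its length and scaled to a total of 1000000 in every library (TPM). In PC9, MET was at 234 ± 5.74 TPM (SD, n = 3) and AXL at 144 ± 9.97 TPM, ranks 1 and 2 among the receptor tyrosine kinases, and they held these ranks in PSPC9 at 262 ± 13.04 TPM and 189 ± 7.24 TPM. GAS6, at 52.8 ± 6.30 TPM and 86.4 ± 3.91 TPM, came next among the 10 genes. EPHA2 was rank 10 among the receptors in PC9 (38.3 ± 2.52 TPM) and rank 12 in PSPC9 (22.9 ± 0.592 TPM). FGFR1 moved from rank 27 at 1.90 ± 0.555 TPM to rank 16 at 11.4 ± 1.23 TPM. This rise in TPM was smaller than the 9.55-fold rise from its gene counts, and the cause of the difference was not tested.

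ROR1 (7.29 ± 0.440 TPM), FGFR3 (6.31 ± 0.540 TPM) and FGFR4 (5.53 ± 0.959 TPM) followed each other in PC9, of which FGFR3 and FGFR4 overlapped over the libraries. FGFR1 and FGF2 (1.57 ± 0.0449 TPM) overlapped there too. In PSPC9 the order after EPHA2 was FGFR1, ROR1 (10.9 ± 1.75 TPM), FGFR4 (7.43 ± 0.293 TPM), FGF2 (6.38 ± 0.225 TPM) and FGFR3 (6.12 ± 0.685 TPM). The libraries of FGFR1 and ROR1 overlapped, as did those of FGF2 and FGFR3. Between the groups, FGFR4 libraries did not overlap in TPM (4.70 to 6.58 in PC9, 7.18 to 7.75 in PSPC9), unlike in CPM. FGFR3 libraries did overlap between the groups in TPM (5.70 to 6.72 in PC9, 5.46 to 6.82 in PSPC9), although not in CPM. No test was run on TPM. ROR1 levels rest on its transcripts matched to GENCODE, which held fewer counts than its gene row in PSPC9. FGFR2 was last in both groups, at 0.0648 ± 0.0106 TPM and 0.0591 ± 0.0293 TPM.

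**Figure D2:**
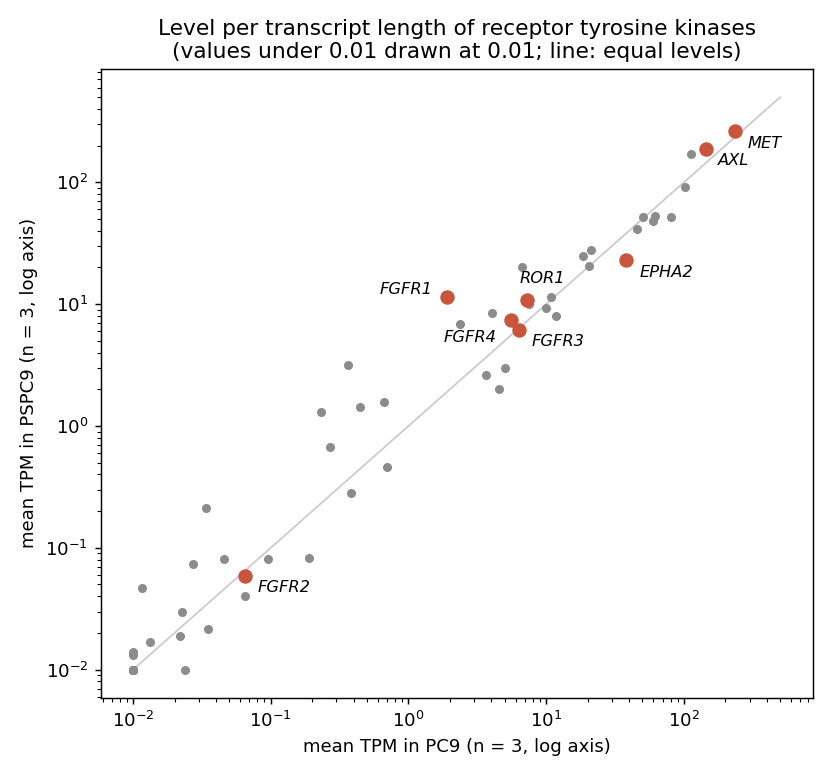
Mean TPM of receptor tyrosine kinases in PC9 (horizontal, log axis) against PSPC9 (vertical, log axis), n = 3 each, with the 8 receptors described here in red and the line of equal levels. MET and AXL lie at the top of both axes, FGFR1 lies above the line at 1.90 against 11.4 TPM, and EPHA2 lies below it at 38.3 against 22.9 TPM.

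Transcript counts showed which forms carried these levels. Of the 123 transcripts listed for the 10 genes 32 could be tested, of which 4 were higher and 1 lower in PSPC9, 15.6% against 7.80% of all 54499 transcripts tested (3.89% higher and 3.91% lower). The higher ones were AXL-201, GAS6-201, FGFR1-206 and FGF2-203, and the lower one was EPHA2-201. GAS6-201, EPHA2-201 and ROR1-201 each held nearly all counts of their gene's listed transcripts, with the libraries of a group pooled. The shares were 97.4%, 99.5% and 96.1% in PC9 and 96.2%, 99.7% and 94.6% in PSPC9. Shares here and below are of counts on listed transcripts, which can differ from the gene's counts. In PSPC9 the gene counts of ROR1 were 956, 1028 and 1152, and ROR1-201 had 889, 888 and 842. ROR1-201 had an adjusted p of 0.0221 and did not pass the limit. The number of higher transcripts fell to 1 without PC9 replicate 3, without PSPC9 replicate 2 or without PSPC9 replicate 3, and to 2 without PSPC9 replicate 1, whereas the lower one was called without each of the 6 libraries in turn.

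FGFR1 counts were spread over several coding transcripts. In PSPC9, FGFR1-201 held 29.95% of them, FGFR1-206 22.0% and FGFR1-204 13.8%. In PC9, FGFR1-206 held 28.6%, FGFR1-204 11.4% and FGFR1-201, at 0 in 2 of the 3 libraries, 8.57%. The log2 fold change of FGFR1-206 was 2.86 ± 0.35 (SE), with an adjusted p of 0.00398. Those of FGFR1-201 (adjusted p of 0.0619), FGFR1-204 (0.195) and FGFR1-236 (0.0239) did not pass the limit, at totals of 51 to 68 counts for the whole gene in PC9. FGFR1-236 is annotated as a nonsense-mediated decay transcript. FGF2-203 held 87.8% of the counts on listed FGF2 transcripts in PC9 and 84.6% in PSPC9. Its log2 fold change was 1.86 ± 0.13 (SE). FGF2-202 held the rest of those counts, and its log2 fold change of 2.23 ± 0.60 (SE) had an adjusted p of 0.0562.

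Transcript usage, the share of a gene's counts that each of its transcripts takes, was tested with edgeR's diffSpliceDGE and a Simes p per gene for 8 of the 10 genes. It changed for 0 of them, with all adjusted p at 1.00, 0 of 8 under an unadjusted p of 0.05, and the smallest unadjusted p at 0.244 for FGFR4, while 1.88% of all 10542 genes were called. The MET transcript with the 18-residue insert took 4.62%, 5.46% and 6.14% of counts in PC9 and 6.51%, 5.85% and 7.23% in PSPC9, which overlapped. MET-202, without the insert, held 93.7% in PC9 and 92.4% in PSPC9 (adjusted p of 0.419). AXL transcripts with the 9-residue exon took 74.9%, 71.9% and 72.2% in PC9 and 74.4%, 73.1% and 70.7% in PSPC9, and the groups overlapped. AXL-202, the form without it, had a log2 fold change of 0.34 ± 0.11 (SE), close to the 0.33 ± 0.03 of AXL-201, but an adjusted p of 0.0874.

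FGFR3 had few counts and scattered shares. Of counts on transcripts that hold IIIb or IIIc, IIIb took 49.8%, 57.5% and 59.3% in PC9 and 77.9%, 79.0% and 58.5% in PSPC9. A pair of PSPC9 libraries was above all PC9 libraries and the third was not, and the counts per library behind these shares were 122 to 184 for IIIb and 42 to 124 for IIIc. The means were 55.5 ± 5.05% (SD, n = 3) and 71.8 ± 11.5%. With 3 libraries against 3 an exact permutation test cannot go below p = 0.1, and none was run. Of its listed transcripts, FGFR3-202 (IIIb) held 40.6% of counts in PC9 and 54.1% in PSPC9, with an adjusted p of 0.679. FGFR3-203, FGFR3-204 and FGFR3-205 had log2 fold changes of -1.07, -0.96 and -1.49 with adjusted p of 0.135, 0.717 and 0.716. FGFR4 counts were split among FGFR4-201 (58.8% in PC9 and 51.4% in PSPC9), FGFR4-203 (26.4% and 9.62%) and FGFR4-207 (7.79% and 23.2%), with adjusted p of 0.949, 0.174 and 0.469.

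**Figure D3:**
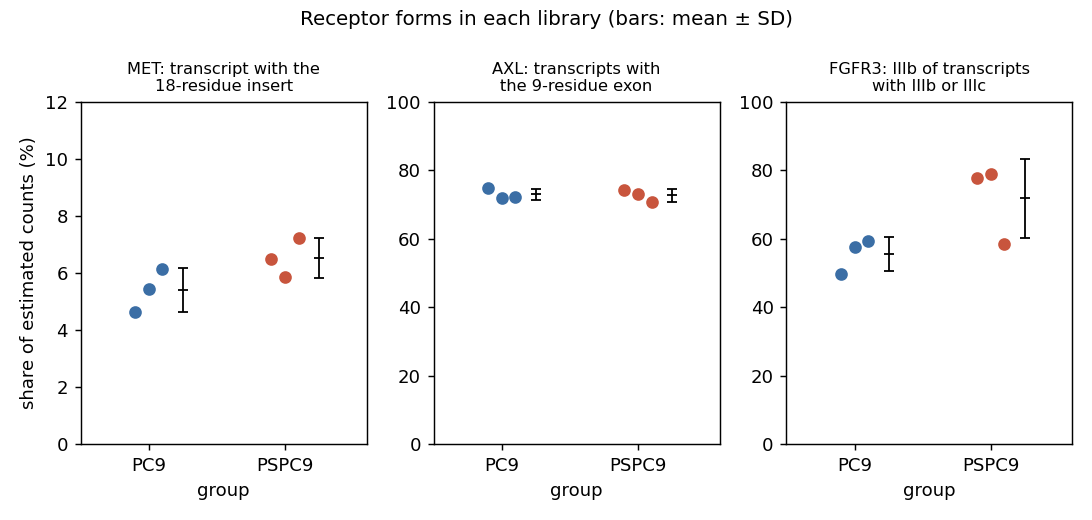
Share of estimated counts (%) on the MET transcript with the 18-residue insert, on AXL transcripts with the 9-residue exon, and on IIIb among FGFR3 transcripts that hold IIIb or IIIc, one point a library, with mean ± SD (n = 3). The groups overlap in all 3 panels, and the widest spread is that of FGFR3 in PSPC9, from 58.5% to 79.0%.

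Against the whole receptor family, 57 of 58 listed receptor tyrosine kinases were found in the gene table, 7 of them without a count in any library, and 33 were tested. Of these 15 rose, 9 fell and 9 did not pass the limit, 72.7% called against 56.8% of all genes. The median log2 fold change of the family was 0.17, and that of all genes tested was -0.01. FGFR1 was second in size of increase to CSF1R, the macrophage colony-stimulating factor receptor, which went from 0.46 to 4.58 CPM (log2 fold change 3.31 ± 0.17, SE). EPHA4 rose from 4.30 to 17.2 CPM (2.00 ± 0.08). Among those that fell, ERBB3, the partner of EGFR and ERBB2, went from 208 to 125 CPM (-0.74 ± 0.03) and MST1R, the receptor related to MET, from 22.6 to 13.5 CPM (-0.74 ± 0.08). EPHB3 (-1.20 ± 0.14), another Eph receptor, fell beside EPHA2.

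**Figure D4:**
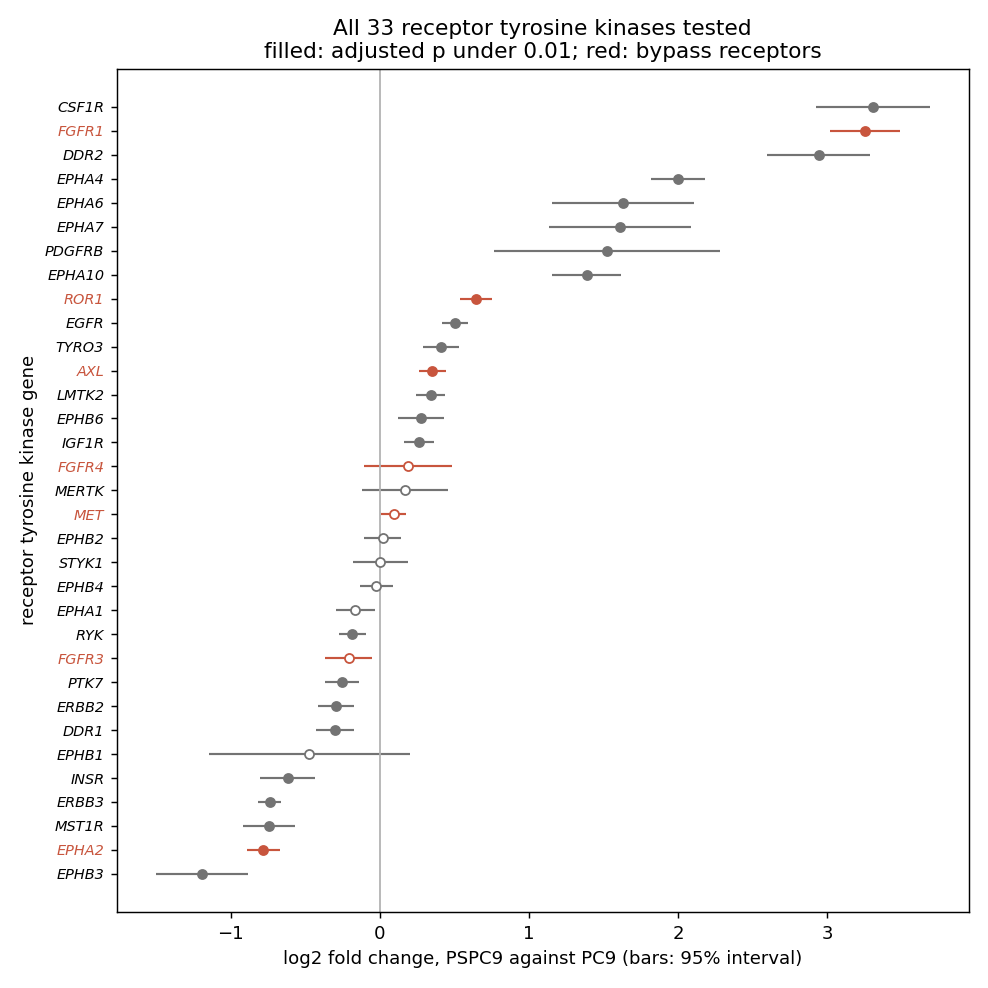
Log2 fold change of PSPC9 against PC9 with its 95% interval for the 33 receptor tyrosine kinases tested, with the bypass receptors in red and filled points for an adjusted p under 0.01. FGFR1 (3.26) is near the top, ROR1 (0.65) and AXL (0.35) lie right of 0, MET (0.09) and FGFR4 (0.19) are open points near 0, and EPHA2 (-0.78) is next to last.

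In the 9 lists of partner genes that follow, 56.0% to 76.2% of the tested genes were called, against 56.8% of all genes tested (28.7% higher and 28.1% lower). Of 11 tested genes of the HGF and MET axis 2 rose and 5 fell (median log2 fold change -0.17). The proteases TMPRSS2 (2.68 ± 0.17, SE) and ST14 (0.37 ± 0.05), which can activate HGF, rose. The protease HPN (-1.48 ± 0.08), the MET co-receptor CD44 (-0.38 ± 0.04) and MST1, the ligand of MST1R (-1.87 ± 0.19), fell. Of 8 tested genes of the TAM system, which here are receptors, ligands and enzymes of the vitamin K cycle, 4 rose and 1 fell (median 0.26). GGCX (0.52 ± 0.06), the carboxylase that makes GAS6 active, rose beside AXL and GAS6, and LGALS3 (-0.61 ± 0.04), a lectin ligand of MERTK, fell.

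In the FGF system 13 of 21 tested receptors, co-receptors and adaptors rose and 3 fell (median 0.26). CDH2, N-cadherin, which binds FGFR1, rose from 20.03 to 62.2 CPM (1.64 ± 0.05, SE), and GPC4, a heparan sulfate proteoglycan, rose from 15.1 to 32.0 CPM (1.09 ± 0.05). FGFBP1, a protein that frees FGF2 from the matrix, fell from 12.3 to 2.43 CPM (-2.34 ± 0.11), as did FRS3 (-0.49 ± 0.10) and FLRT2 (-0.53 ± 0.12). Of 10 tested FGF ligands 4 rose and 2 fell (median 0.47). Beside FGF2 these were FGF12 (1.23 ± 0.07), FGF21 (2.22 ± 0.41) and FGF1 (0.78 ± 0.21) among the higher. Among the lower were FGF11 (-1.36 ± 0.08) and FGF19 (-4.20 ± 0.29). FGF1, FGF21 and, in PSPC9, FGF19 had few counts. FGF1 was at 0.67 CPM in PC9 and 1.15 CPM in PSPC9, and FGF21 at 0.23 and 1.06 CPM. FGF19 went from 3.56 to 0.19 CPM, with 9, 3 and 6 counts in the PSPC9 libraries. FGF11 and FGF12 act inside the cell, and FGF19 and FGF21 are hormone-like FGFs.

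Of 11 tested Eph receptors 5 rose and 2 fell (median 0.02), with EPHA10 (1.39 ± 0.10, SE) and EPHA6 (1.63 ± 0.21) rising beside EPHA4. Of 8 ephrins 1 rose, EFNB3 (0.66 ± 0.12), and 5 fell (median -0.30), with EFNB1 (-0.62 ± 0.06) having the smallest p. Of 18 tested genes of the ROR and WNT5A axis 7 rose and 5 fell (median -0.08). CAVIN1, a caveolar protein known to be stabilised by ROR1, rose from 228 to 525 CPM, and CAV1, the other main caveolar protein, fell from 1216 to 634 CPM. DVL3 rose (0.38 ± 0.04) and DVL2 fell (-0.54 ± 0.06), both of which relay WNT signals.

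Downstream of the receptors, 12 of 30 adaptors rose and 8 fell (median 0.10). GRB10 (1.62 ± 0.04, SE), the phosphatase PTPN11 (0.63 ± 0.03), which carries FGFR and MET signals to RAS, and NCK2 (0.66 ± 0.05) rose. GRB7 (-2.01 ± 0.07), IRS1 (-0.77 ± 0.05) and SHC1 (-0.67 ± 0.06) fell. Of 25 tested genes of receptor shedding and turnover 6 rose and 8 fell (median -0.05). The metalloprotease inhibitor TIMP3 rose (1.31 ± 0.04) and TIMP1 fell (-0.75 ± 0.06), SH3KBP1 (0.57 ± 0.04) and RNF41 (0.55 ± 0.05) rose, and the ubiquitin ligases CBLC (-1.33 ± 0.07) and CBLB (-0.61 ± 0.05), which mark activated receptors for degradation, fell.

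FGF2 and EPHA2, which had strong changes in opposite directions, are shown by the bases just before their gene starts as an example of promoter sequence. RefSeq promoter windows of 300 bases (GRCh38.p14) were held for 9 of the 10 genes, 15 windows in all, and were searched on both strands for AP-1 letters TGANTCA, TEAD letters GGAATG, GC box letters GGGCGG and TATA letters TATAAA. The GC box letters were in 9 of 15 windows (45.0% of all 35116 windows), the TEAD letters in 5 (14.0%), and the AP-1 and TATA letters in 0 (7.71% and 11.5%). TEAD letters were in windows of AXL, EPHA2, FGFR2 and FGFR4, of which AXL rose, EPHA2 fell, FGFR4 did not pass the limit and FGFR2 was too low to be tested. The sequences are written 5′ to 3′ on the gene's strand with the letters found in capitals, the GC box 2 times before FGF2 (chr4:122826581-122826681, plus strand) and the TEAD and GC box letters before EPHA2 (chr1:16156070-16156319, minus strand).
FGF2 promoter: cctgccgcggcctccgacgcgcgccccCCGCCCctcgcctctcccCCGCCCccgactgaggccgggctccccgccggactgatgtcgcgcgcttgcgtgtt
EPHA2 promoter: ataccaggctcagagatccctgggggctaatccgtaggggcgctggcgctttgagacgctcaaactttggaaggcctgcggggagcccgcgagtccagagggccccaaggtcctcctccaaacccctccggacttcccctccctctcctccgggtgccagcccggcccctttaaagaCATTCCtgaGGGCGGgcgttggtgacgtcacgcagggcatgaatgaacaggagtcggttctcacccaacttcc

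The genes whose 6 library values were most like those of the members with the smallest p-values were found by Euclidean distance of mean-centred log2 CPM over all genes tested. For FGFR1 they were SCARF2 (distance 0.249), BMP6 (0.270) and TNFRSF9 (0.278), the last of which went from 3.03 to 26.8 CPM. For FGF2 they were GLP2R (0.102), HNRNPA1P33 (0.132) and CYP1B1 (0.137), which went from 59.1 to 240.3 CPM. EPHA2 was nearest to ID1 (0.0428), FAM83A (0.0603) and KRT8 (0.0604). Since 2 groups of 3 set most of each pattern, these distances are small for many genes with a similar change.

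LETM2 and NUDT6, protein-coding genes that overlap FGFR1 and FGF2 on the opposite strand by 9313 and 9540 bases of genomic span, moved opposite to them. LETM2 had 69, 65 and 74 counts in PC9 and 22, 29 and 33 in PSPC9 (log2 fold change -1.20 ± 0.18, SE). NUDT6 had 321, 369 and 305 counts against 204, 151 and 187 (-0.77 ± 0.13). Whether reads were assigned by strand is not given in the sources used here, so reads of overlapping exons could not be told apart. CFL1P3, a pseudogene on the opposite strand of ROR1, had 1 count at most in any library. The other genes on the opposite strand had no row of their name among the gene counts and could not be analysed here. GAS6-AS1, EPHA2-AS1 and ROR1-AS1 were among them.

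Markers of cell types moved as well. All 7 epithelial markers were tested, 2 rose and 5 fell, and their summed level was 7806 to 8412 CPM in PC9 and 6154 to 6526 CPM in PSPC9. CDH1 (0.60 ± 0.03, SE) and KRT7 (0.46 ± 0.04) rose, and KRT19 (-1.03 ± 0.04), KRT18 (-0.92 ± 0.04) and KRT8 (-0.80 ± 0.05) fell. Fibroblast markers summed to 10.5 to 11.02 CPM in PC9 and 27.4 to 30.8 CPM in PSPC9, where the 2 of 7 tested, COL1A1 and PDGFRB, rose and COL3A1 had 0 counts in all libraries. COL1A1 made up nearly all of these sums, with means of 10.2 CPM in PC9 and 28.3 CPM in PSPC9. Immune markers summed to 76.4 to 78.2 CPM against 30.7 to 34.1 CPM, with ITGAM rising, CD68 falling and CD3E and NKG7 at 0 counts. CD68 alone made up nearly all of the PC9 sum, at 74.7, 75.7 and 73.9 CPM, and PTPRC and CD14 did not pass the limit. Endothelial markers summed to 8.28 to 8.9997 CPM against 3.73 to 4.27 CPM, with PECAM1 falling. Their part in the results was not tested, and fewer cells that carry a transcript and less of it per cell cannot be told apart in bulk RNA.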

How the data were processed

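Poly-A RNA of 3 PC9 and 3 PSPC9 libraries was compared, grouped and numbered by their labels, while dose, time and number of cultures are from the study's methods and legends. The authors trimmed and filtered the reads and pseudoaligned them with kallisto 0.46.1 to Ensembl transcripts of GRCh38.p13; the submitters' processing notes also name sleuth 0.30.0. The files deposited by the authors hold its estimated counts per gene symbol and per transcript, all whole and not normalized. No test here includes kallisto's error in splitting reads between like transcripts.

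The tests were run with edgeR 4.0.16 in R 4.3.3 (filterByExpr, TMM, glmQLFit and glmQLFTest), Benjamini-Hochberg adjustment over all genes or all transcripts tested, and a limit of 0.01. SEs were taken from the log2 fold change and its F statistic. Usage was tested with diffSpliceDGE. Transcripts were matched to GENCODE 44 (167067 of 188753, 95.8% of counts), which also gave positions, exons and lengths, and promoters are RefSeq windows. The genes described and all gene lists were chosen with earlier results of these data known. Named were all 10 genes, ligands of the receptors, and tested transcripts with at least 10% of the counts on a gene's matched transcripts. Also named were up to 3 genes per list and direction with the smallest p-values, the 3 nearest genes of 3 members, and genes on the opposite strand. FGFR1 promoter and protein sequences were not used here. DESeq2 1.42.0 and limma 3.58.1 served as alternatives, and the scripts were tested on simulated data.

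Replicate numbers occur in both groups but the labels do not say what they share. Deviations from the group means of same-numbered libraries correlated at 0.124, 0.0236 and 0.0215 over all genes tested, so the numbers were not taken to pair the libraries.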

Additional observations from a re-analysis of the deposited data

How the results depend on the processing

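The log2 fold changes of the 9 genes tested kept their direction under all 15 alternatives run (DESeq2, limma voom, other scalings and filters, a replicate block, gene counts summed over transcripts, leaving out each library), and the calls of AXL, GAS6, FGFR1, FGF2, ROR1 and EPHA2 held in each. FGFR3 passed the limit with upper-quartile factors and with library size only, which brought the genes called lower from 1 to 2, as did an adjusted p under 0.05; the cause was not tested. These scalings moved the median log2 fold change of all genes from -0.01 to -0.05 and -0.06. The requirement of a fold above 2, which by its construction keeps fewer genes, left 2 genes higher and 0 lower, and 8 receptor tyrosine kinases higher and 1 lower. With an adjusted p under 0.05, MET was also called higher, which brought the genes called higher from 5 to 6. At that limit 7 transcripts of the 10 genes were higher. With 1 library left out at a time, 1 to 3 transcripts were higher. With the replicate block 0 were higher and 0 lower, and the block changed no other call; not every library correlated best with its own number. Levels per length changed with the length used but MET and AXL stayed at ranks 1 and 2, and FGFR1 went from rank 27 to 15. The counts limit FGFR2 and HGF, and transcript shares of FGFR1, FGFR3 and FGFR4.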
